A study of Mus musculus with 2 samples.

Results

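The haemoglobin genes of the mouse were followed across single nuclei of the brain. All 8 genes of the 32285 in the files whose symbol begins with Hba- or Hbb- were taken, and their unique molecular identifiers (UMIs, 1 for each captured RNA molecule) were counted in every nucleus. The study made 2 libraries of single nuclei, labelled Normal and SAH, from male mice of 6 to 8 weeks by the labels. The methods give an older age range, so the age is not settled here. The SAH mice had a subarachnoid haemorrhage made by puncture of a vessel from within, and their brains were taken 12 h later. The Normal mice are called normal in the labels and sham in the methods, so whether they had the sham operation is not settled here. Each library pooled the same side of the brain, from the medial prefrontal cortex to the level of the centrolateral thalamic nucleus, of 3 mice. The methods give the strain as C57BL/6J, and no allele or agent beyond the haemorrhage is named for either group. With 1 pooled library per condition there is no replicate and no test between conditions. All intervals below are exact 95% intervals (Poisson for levels, binomial for shares, conditional binomial for ratios) and cover counting error only.

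Haemoglobin carries oxygen in red blood cells and is built from alpha and beta globin chains, each holding a haem group. In the mouse the alpha genes lie in 1 cluster and the beta genes in another, and each cluster holds embryonic and adult genes that are switched on in turn. Hba-x, Hbb-bh1 and Hbb-y are embryonic genes, and Hba-a1, Hba-a2, Hbb-bs and Hbb-bt are the adult genes. Mature mammalian red blood cells have no nucleus, while young ones still hold globin mRNA in their cytoplasm. Globin transcripts have also been described in some neurons and glia. A haemorrhage puts blood into the space around the brain, where macrophages and microglia take up haemoglobin and break down its haem.

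The 2 adult alpha genes, and likewise the 2 adult beta genes, are near copies of each other in their coding sequence. In the GENCODE vM21 annotation of GRCm38, Hba-a1 lies on the plus strand at chr11:32283511-32284465 and Hba-a2 at chr11:32296489-32297298. Hbb-bs lies on the minus strand at chr7:103826534-103828096 and Hbb-bt at chr7:103812524-103813996. The coding sequences of the 2 alpha genes, 429 bases each, differ at 1 base (C381T, Hba-a1 first, counted from 1 at the A of the start codon). Those of the 2 beta genes, 444 bases each, also differ at 1 base (C417T, Hbb-bs first). Neither base changes the protein. The stretches of coding sequence around these bases, from the annotated transcripts, are shown because they are the only places in the coding sequence where a read can be placed in 1 copy. The base that differs is in capitals.

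Hba-a1 (coding bases 351 to 410): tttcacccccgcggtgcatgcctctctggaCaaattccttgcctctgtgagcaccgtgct
Hba-a2 (coding bases 351 to 410): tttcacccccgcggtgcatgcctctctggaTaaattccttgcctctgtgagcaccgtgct
Hbb-bs (coding bases 385 to 444): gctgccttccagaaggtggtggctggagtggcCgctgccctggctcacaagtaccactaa
Hbb-bt (coding bases 385 to 444): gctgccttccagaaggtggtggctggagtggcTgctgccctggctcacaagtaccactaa

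Near the 3′ end, where this assay primes, the 2 pairs differ in another way. The first 74 bases after the stop codon were identical in Hba-a1 and Hba-a2, whereas 85 of the first 131 differed between Hbb-bs and Hbb-bt when laid side by side without gaps. The annotated transcripts have 699 bases in Hba-a1, 554 in Hba-a2, 628 in Hbb-bs and 703 in Hbb-bt. Since lengths differ within each pair, shares of windows in common do not rank the 2 pairs. Of all windows of 150 bases in the Hba-a1 transcript 48.4% also occurred in Hba-a2, and of those in the Hbb-bs transcript 58.7% occurred in Hbb-bt. The split between Hba-a1 and Hba-a2 is therefore uncertain, and that between Hbb-bs and Hbb-bt is less so for reads after the stop codon. The alpha sum, the beta sum and the family sum do not depend on these splits and are firmer in that respect. Whether reads that match both copies were counted was not tested, and the sums would lack any that were not. An alpha and a beta gene share no window of 50 bases (0% of those in Hba-a1 occurred in Hbb-bs).

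The Normal library held 12204 nuclei with 114970719 UMIs (median 7252.5 per nucleus) and the SAH library 18209 nuclei with 172604358 UMIs (median 8151). Mitochondrially encoded genes took 0.0732% and 0.0575% of the UMIs. The libraries shared 78 barcodes, and these held 5 haemoglobin UMIs in Normal and 4 in SAH. Nuclei were put in classes by marker genes, and excitatory neurons, inhibitory neurons, oligodendrocytes and microglia were found in both libraries, as the dissected region would hold, whereas only 19 Normal and 15 SAH nuclei passed the astrocyte gate. The border macrophage list went from 7.72 CPM in Normal to 21.6 in SAH, and the neutrophil genes S100a8 and S100a9 went from 0 to 15 and from 0 to 16 UMIs, while the neutrophil list as a whole had 10.1 and 7.45 CPM.

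Haemoglobin transcripts were few in both libraries and fewer in SAH. The 8 genes together had 822 UMIs in Normal and 481 in SAH, although the SAH library was deeper. As UMIs per 1000000 UMIs of the library (CPM) the family level was 7.15 (interval 6.67 to 7.66) in Normal and 2.79 (2.54 to 3.05) in SAH, and the 2 intervals did not overlap. The level in SAH was therefore 2.57 times lower, a log2 ratio of SAH over Normal of -1.36 (-1.52 to -1.20). Over the 20520 genes with at least 50 UMIs the median log2 ratio was -0.07, and 225 of them (1.10%) had a ratio at or below that of the family. In bulk terms, fewer cells that hold a transcript and less of it per cell cannot be told apart from these sums.

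All 4 adult genes had a lower level in SAH, and their intervals did not overlap between the libraries. The share of all genes whose intervals were apart was not counted, so this is not read as a trait of these genes. Hbb-bs, an adult beta gene, had 407 UMIs in Normal and 176 in SAH, or 3.54 and 1.02 CPM, a log2 ratio of -1.80 (-2.06 to -1.54). Hbb-bt, the other adult beta gene, had 46 and 25 UMIs, or 0.400 and 0.145 CPM, a log2 ratio of -1.47 (-2.23 to -0.73). Hba-a1, an adult alpha gene, had 212 and 138 UMIs, or 1.84 and 0.80 CPM, a log2 ratio of -1.21 (-1.53 to -0.89). Hba-a2, the other adult alpha gene, had 157 and 141 UMIs, or 1.37 and 0.817 CPM, a log2 ratio of -0.74 (-1.08 to -0.40). The interval of Hbb-bs lay below those of both alpha genes, and that of Hbb-bt overlapped all 3. The gap between Hbb-bs (upper limit -1.54) and Hba-a1 (lower limit -1.53) was narrow. One SAH nucleus held 7 of the 138 SAH UMIs of Hba-a1, and the interval without it was not computed. Taking a change past 2 fold as the mark, 3 of the 4 adult genes were lower in SAH and Hba-a2 was not past it, where 4.12% of all genes with at least 50 UMIs were lower by 2 fold or more.

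The other 4 genes were at or near 0. Hba-x, an embryonic alpha-like gene, had 0 UMIs in Normal and 1 in SAH, and Hbb-bh1, Hbb-bh2 and Hbb-y had 0 in both. A count of 0 allows a level of up to 0.0261 CPM in Normal and 0.0174 CPM in SAH (3 counts of the library), so no ratio is given for them. UMIs are counted once per captured molecule and were not divided by transcript length, so levels are compared here between libraries for 1 gene and not ranked between genes.

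**Figure D1:**
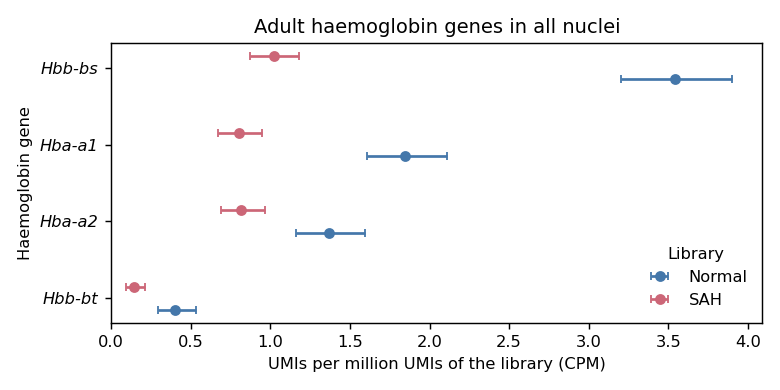
Level of each adult haemoglobin gene in all nuclei, in CPM (horizontal axis), in the Normal and SAH libraries. Points are the values of 1 pooled library each and bars are exact 95% Poisson intervals for counting error only. Each gene has the lower point in SAH, from 0.145 CPM for Hbb-bt to 1.02 CPM for Hbb-bs.

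The difference was unequal between alpha and beta. The alpha genes together had 369 UMIs in Normal and 280 in SAH, or 3.21 and 1.62 CPM, a log2 ratio of -0.98 (-1.21 to -0.76). The beta genes together had 453 and 201 UMIs, or 3.94 and 1.16 CPM, a log2 ratio of -1.76 (-2.01 to -1.52). These 2 intervals did not overlap. The alpha share of all haemoglobin UMIs was 44.9% (41.5 to 48.4) in Normal and 58.2% (53.7 to 62.7) in SAH. Of the counted UMIs, the library with the higher total thus held more beta than alpha, and the library with the lower total more alpha than beta. Which chain had more transcript is not read from these counts, only the change in the share between the libraries. Without the nuclei that held 4 or more haemoglobin UMIs the shares were 44.4% and 57.2%.

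The alpha share was higher in SAH in each of the 6 classes with at least 50 nuclei in both libraries. In excitatory neurons it was 48.7% in Normal and 58.2% in SAH, and in inhibitory neurons 49.7% and 66.7%. In oligodendrocytes it was 41.8% (32.9 to 51.1) and 61.8% (52.1 to 70.9), the only class in which the intervals of the 2 libraries did not overlap; without the 2 oligodendrocytes, 1 in each library, that held 4 or more haemoglobin UMIs it was 39.7% and 58.4%, and the intervals overlapped. In microglia it was 36.8% and 54.5%, with wide intervals that overlapped. In nuclei under 1000 UMIs the alpha share was 26.9% in Normal and 50% in SAH, and in those of 20000 or more 51.6% and 68.3%. Within a library, the intervals of the 6 classes overlapped each other in SAH and in Normal. Within the pairs of near copies, Hba-a1 had 1.35 (1.09 to 1.67) UMIs for each of Hba-a2 in Normal and 0.979 (0.768 to 1.25) in SAH, and Hbb-bs had 8.85 and 7.04 for each of Hbb-bt. The intervals of both ratios overlapped between the libraries.

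**Figure D2:**
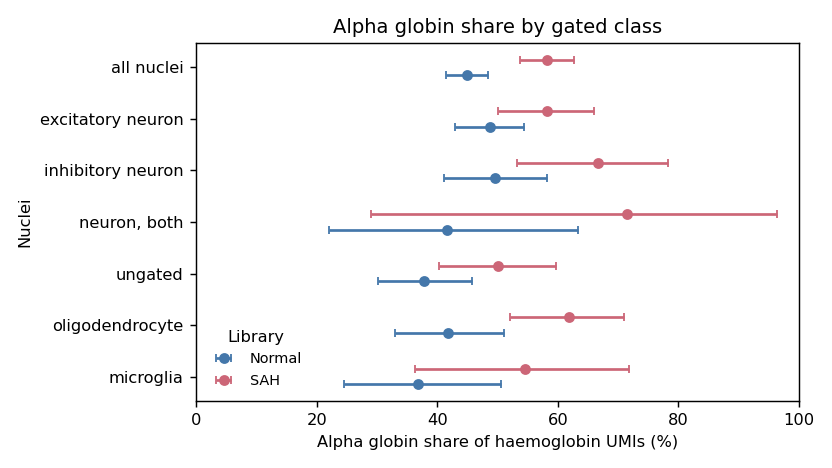
Alpha globin share of all haemoglobin UMIs (horizontal axis, percent) in all nuclei and in the 6 gated classes, in the Normal and SAH libraries. Points are 1 pooled library each and bars are exact 95% binomial intervals; the share in all nuclei is 44.9% in Normal and 58.2% in SAH, and each class has the higher point in SAH.

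Most haemoglobin UMIs came as single molecules in many nuclei. In Normal, 11454 nuclei held 0 haemoglobin UMIs, 700 held 1, 41 held 2, 5 held 3 and 4 held 4 or more. In SAH, 17755 held 0, 442 held 1, 9 held 2, 0 held 3 and 3 held 4 or more. Nuclei with a single UMI held 85.2% of the family's UMIs in Normal and 91.9% in SAH.

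The number of nuclei with 2 UMIs depended on which rate was taken as even. If each UMI of the library had the same small rate of being haemoglobin, 42.1 Normal nuclei would hold exactly 2 and 10.0 SAH nuclei would, against 41 and 9 observed. If each nucleus had the same rate, 25.9 and 6.19 would. Neither rate describes the nuclei in full, since the haemoglobin share of the UMIs fell with depth. Among nuclei under 4 UMIs, 20 in Normal and 4 in SAH held alpha and beta together. If the 2 fell on nuclei independently, each at 1 rate for every nucleus whatever its depth, 11.9 and 2.78 would. For exactly 2 UMIs the rate that follows depth gave higher numbers than the rate per nucleus. No number that follows depth was computed for alpha and beta together, so no excess is read from these values. At 3 UMIs the even rate per UMI gives 2.39 and 0.196 nuclei, against 5 and 0. At 4 or more it gives 0.147 and 0.00375 nuclei, against 4 and 3. The variance of the UMIs per nucleus was 1.23 times the mean in Normal and 1.30 times in SAH, and 1.08 and 1.01 times in the nuclei under 4 UMIs. These even rates are a description of the 2 libraries and no test was made.

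**Figure D3:**
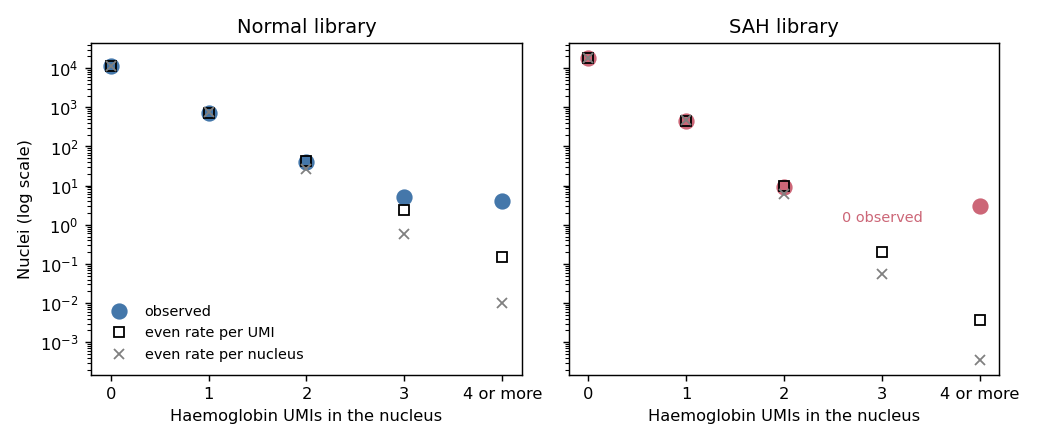
Number of nuclei (vertical axis, log scale) by the haemoglobin UMIs they held (horizontal axis), in the Normal library (left) and the SAH library (right). Filled circles are observed counts, open squares are the counts under 1 rate for every UMI and crosses those under 1 rate for every nucleus; circles and squares lie together up to 2 UMIs, the Normal cross at 2 UMIs lies lower, and the observed 4 Normal and 3 SAH nuclei at 4 or more lie far above both.

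No nucleus counted here was rich in haemoglobin. The study kept only nuclei with under 3% haemoglobin, and whether richer ones were removed before the counts were made public is not settled here. The counts still hold 71 Normal and 29 SAH nuclei outside the study's limits on nuclei, and 0 in either library outside the haemoglobin limit. The limits as a set were thus not applied to these counts, which does not settle the haemoglobin limit alone. A nucleus was taken as high where at least 10 of its UMIs and at least 1% of them were haemoglobin. None passed, 0 of 12204 in Normal and 0 of 18209 in SAH, with upper interval limits of 0.0302% and 0.0203%. The highest count was 7 UMIs in Normal and 9 in SAH, and the highest share of a nucleus was 0.303% in Normal and 0.976% in SAH. Genes that stand apart in high nuclei could therefore not be named. A cut of 4 UMIs at any share, set after the distribution was seen, took 4 Normal nuclei with 25 UMIs (3.04% of the family's) and 3 SAH nuclei with 21 UMIs (4.37%), with 5 Normal and 0 SAH nuclei just under it at 3 UMIs. The family log2 ratio without these nuclei was -1.38.

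The 7 nuclei above that cut were unlike each other. In SAH, the nucleus with 9 haemoglobin UMIs passed the oligodendrocyte gate with 26 marker UMIs, had 1154 UMIs in all, and its haemoglobin was alpha only, 7 UMIs of Hba-a1 and 2 of Hba-a2. The SAH nucleus with 8 UMIs, 4 alpha and 4 beta, had only 820 UMIs in all, took no class and had 3.41% mitochondrial UMIs. The third SAH nucleus, an inhibitory neuron by its markers, had 4 alpha UMIs among 9915. In Normal, the nuclei with 7, 7, 6 and 5 haemoglobin UMIs were 2 without a class, an oligodendrocyte and an inhibitory neuron, and all 4 held alpha and beta UMIs together. UMIs of the erythroid marker list, which holds no haemoglobin gene, were at 0 or 1 in all 7 nuclei, and platelet marker UMIs at 0.

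The amount of haemoglobin per nucleus changed far less than the depth of the nucleus, so its share of the UMIs fell steeply as depth rose. In Normal, nuclei under 1000 UMIs held 49.0 haemoglobin UMIs per 1000 nuclei, those of 5000 to 10000 UMIs held 69.3, and those of 20000 UMIs or more held 98.5. In SAH the same 3 bins held 40.2, 23.0 and 34.4. Mean depth rose 35.6 fold in Normal and 36.7 fold in SAH from the first bin to the last, while haemoglobin UMIs per nucleus changed 2.01 fold and 0.858 fold. One SAH nucleus of 820 UMIs held 8 of the 20 haemoglobin UMIs of its bin, and without the nuclei of 4 or more haemoglobin UMIs that bin held 24.1 per 1000 nuclei and the changes were 1.93 fold and 1.43 fold, so the direction in SAH rests on that nucleus. On the CPM scale the family went from 61.5 to 3.48 in Normal and from 56.0 to 1.31 in SAH, or from 33.7 in SAH without that nucleus. The files hold called nuclei only, so haemoglobin in empty droplets was not measured, and a single UMI need not come from the nucleus it was counted in.

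The SAH level was below the Normal level in every bin, with 1 bin whose interval held 0. In nuclei under 1000 UMIs, 531 in Normal and 498 in SAH, the log2 ratio was -0.13 (-1.05 to 0.76), from 26 and 20 haemoglobin UMIs. Without the SAH nucleus of 8 UMIs the ratio was -0.87 (-1.99 to 0.17). In the other 5 bins the ratio ran from -1.65 to -1.22, with intervals below 0. Mitochondrial UMIs moved the same way with depth, from 0.894% of the UMIs in the shallowest Normal bin to 0.0448% in the deepest and from 0.556% to 0.0386% in SAH, and their part in the haemoglobin trend was not tested.

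**Figure D4:**
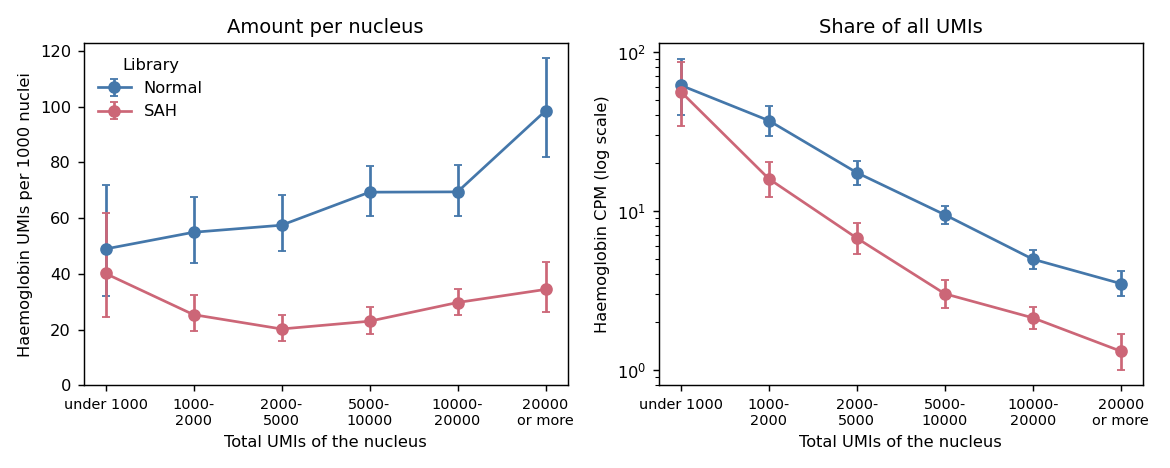
Haemoglobin by total UMIs of the nucleus (horizontal axis, 6 bins), as UMIs per 1000 nuclei (left) and as CPM on a log scale (right), in the Normal and SAH libraries. Bars are exact 95% Poisson intervals; in Normal the left panel runs from 49.0 to 98.5 and the right panel falls from 61.5 to 3.48 CPM, and the SAH points lie below the Normal points in every bin.

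The 4 single classes held haemoglobin at a similar amount per nucleus. In Normal, haemoglobin UMIs per 1000 nuclei were 69.6 (62.0 to 77.8) in 4456 excitatory neurons, 72.9 (61.4 to 85.9) in 1962 inhibitory neurons, 59.7 (49.6 to 71.3) in 2042 oligodendrocytes and 51.3 (38.8 to 66.4) in 1112 microglia. In SAH they were 25.8 (22.0 to 30.2) in 6115 excitatory neurons, 27.8 (21.2 to 35.8) in 2160 inhibitory neurons, 25.4 (20.9 to 30.7) in 4323 oligodendrocytes and 22.0 (15.1 to 30.9) in 1500 microglia. Within a library each of these classes overlapped its neighbour in the order, and between libraries none of the 4 overlapped. Microglia had the lowest value of the 4 in both libraries. Against all other nuclei of the same library their log2 ratio per nucleus was -0.43 (-0.84 to -0.04) in Normal. In SAH it was -0.29 (-0.84 to 0.23), an interval that held 0. Nuclei with both neuron marker sets held 113 (72.5 to 168) in Normal, above the intervals of oligodendrocytes and microglia, and 29.2 in SAH. Ungated nuclei held 67.8 and 29.5.

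On the CPM scale the order of the 4 single classes followed their depth, with neurons below oligodendrocytes and microglia. Microglia, with a median of 1461.5 UMIs per nucleus in Normal and 1893.5 in SAH, had 22.6 and 7.00 CPM. Oligodendrocytes, the myelin-forming cells, with medians of 2054 and 2347, had 17.5 and 6.79 CPM. Inhibitory neurons had 6.81 and 2.44 CPM, and excitatory neurons, with medians of 11933.5 and 13320, had 4.87 and 1.75 CPM. The deepest of these 4 classes thus had the lowest CPM and the shallowest the highest. The intervals of microglia and oligodendrocytes overlapped in both libraries and those of the 2 neuron classes overlapped in SAH, whereas both neuron classes lay below both glial classes in each library.

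The log2 ratio of SAH over Normal was below 0, with an interval below 0, in all 6 classes by the gate used here. It was -1.47 (-1.76 to -1.19) in excitatory neurons, -1.48 (-1.94 to -1.03) in inhibitory neurons, -1.37 (-1.76 to -0.99) in oligodendrocytes and -1.69 (-2.36 to -1.05) in microglia. In ungated nuclei it was -1.43 and in nuclei with both neuron marker sets -2.12, from 24 and 7 UMIs; under a looser gate the latter was -0.98 (-2.75 to 0.68), an interval that holds 0. The 6 intervals overlapped each other. Lower by 2 fold or more were 4.46% of the genes with at least 50 UMIs in excitatory neurons, 4.61% in inhibitory neurons, 5.36% in oligodendrocytes, 6.15% in microglia, 5.06% in nuclei with both neuron marker sets and 6.47% in ungated nuclei.

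**Figure D5:**
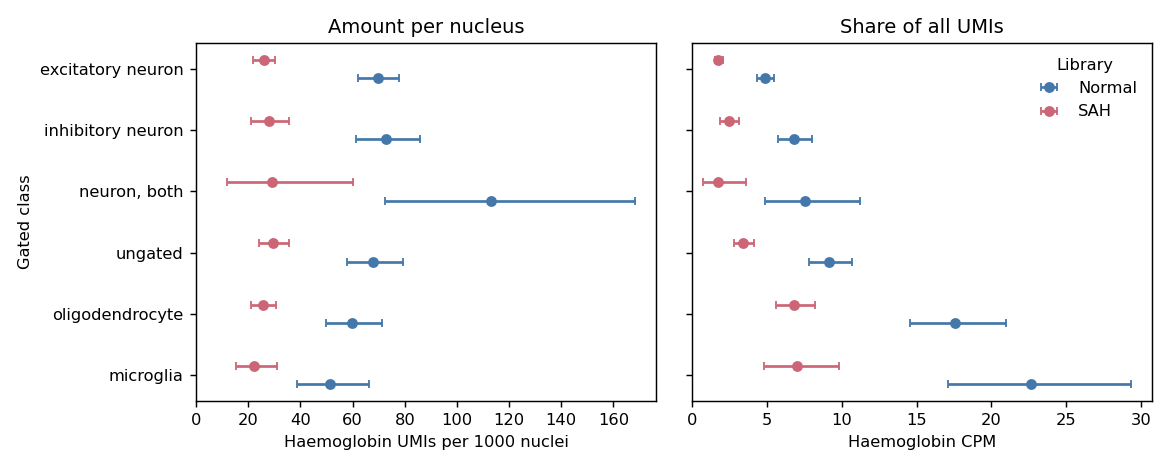
Haemoglobin UMIs per 1000 nuclei (left) and haemoglobin CPM (right) in the 6 gated classes, in the Normal and SAH libraries. Bars are exact 95% Poisson intervals; per nucleus the 4 single classes lie between 51.3 and 72.9 in Normal and between 22.0 and 27.8 in SAH, whereas CPM runs from 4.87 to 22.6 and from 1.75 to 7.00.

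The share of nuclei with at least 1 haemoglobin UMI was 6.15% (5.73 to 6.59) in Normal and 2.49% (2.27 to 2.73) in SAH. This share depends on depth, so each nucleus was also thinned to 1000 UMIs, leaving out 531 shallower Normal nuclei and 498 SAH nuclei, which gave 1.31% and 0.505%. In microglia, which are not known as makers of haemoglobin, the share was 4.86% before and 2.85% after thinning in Normal and 2.13% and 1.03% in SAH. In excitatory neurons it was 6.42% and 0.637% in Normal and 2.52% and 0.201% in SAH. In oligodendrocytes it was 5.53% and 2.38% in Normal and 2.34% and 0.893% in SAH. Left out by thinning were 254 of 1112 Normal and 79 of 1500 SAH microglia, and 158 of 2042 and 212 of 4323 oligodendrocytes. Of excitatory neurons 2 of 4456 and 1 of 6115 were left out, so the shares before and after cover different nuclei. After thinning, the shares in neurons and oligodendrocytes were below the one in microglia in both libraries, whereas before thinning they were above it. Haemoglobin per nucleus changed far less than depth, so thinning lowers the share most in classes of deep nuclei. Neither order can tell expression by a class from background, and expression by any class was not tested.

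No class stood apart from the nuclei of its own library at the same depth. Each class was set against the number of UMIs it would hold if every one of its nuclei had the mean of all nuclei of its library in the same depth bin. The ratio of observed to that number lay between 0.889 in SAH microglia and 1.53 in Normal nuclei with both neuron marker sets, and all 12 intervals held 1. In excitatory neurons it was 0.935 (0.834 to 1.04) in Normal and 0.901 (0.766 to 1.05) in SAH. In oligodendrocytes it was 1.03 (0.856 to 1.23) and 1.07 (0.879 to 1.29). The nuclei of a class enter the mean they are set against, which draws the ratio towards 1, most in the bins they fill.

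The fall with depth was also present within a class, where it was steeper than for nearly all genes. In excitatory neurons, nuclei under 10000 UMIs were compared with those of 20000 or more. Haemoglobin CPM in the shallow ones was 3.00 times (2.23 to 4.05) that in the deep ones in Normal and 2.23 times (1.37 to 3.61) in SAH. The median over 14411 genes in Normal was 1.18 times and over 15102 genes in SAH 1.14 times. At or above the haemoglobin value were 0.389% of genes in Normal and 1.50% in SAH. In oligodendrocytes the 2 libraries were pooled. Haemoglobin CPM under 2000 UMIs was 4.95 times (3.49 to 7.09) that at 5000 or more. The pooled median was 1.12 times over 12814 genes, with 0.780% of genes at or above. By library the value was 3.88 times in Normal and 5.67 times in SAH, with 3.21% and 0.172% of genes at or above. One SAH nucleus held 9 of the 41 haemoglobin UMIs of the shallow SAH oligodendrocytes, and the value without it was not computed. Per nucleus, deep excitatory neurons held 1.38 times the haemoglobin of shallow ones in Normal and 1.61 times in SAH. Deep oligodendrocytes held 2.16 times that of shallow ones in Normal and 1.42 times in SAH. Malat1, a long RNA kept in the nucleus and chosen after its values were seen, had a CPM in nuclei under 1000 UMIs 1.25 times that in nuclei of 20000 or more in Normal and 1.24 times in SAH, where haemoglobin had 17.7 and 42.8 times, or 18.4 and 25.8 times without the nuclei of 4 or more haemoglobin UMIs.

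Classes that would be near blood were too small for a level. The erythroid gate, built on red cell genes other than haemoglobin, took 0 Normal and 10 SAH nuclei, and these 10 held 0 haemoglobin UMIs. Their 38 erythroid marker UMIs were mostly of Alas2 (19) and Tspan33 (16), while Slc4a1, Epb42, Klf1 and Rhag, which define red cells more closely, were at 0, so they are not called red cells here. Endothelial-gated nuclei, 10 in each library, held 0 haemoglobin UMIs. Nuclei of the border macrophage gate, the macrophages of vessels and meninges, numbered 5 in Normal with 2 haemoglobin UMIs and 49 in SAH with 3.

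The genes whose levels over the classes ran most like those of haemoglobin were mainly ribosomal protein genes. Over 12 profiles, the 6 classes in each of the 2 libraries, the 8 genes of 17066 with the highest Pearson correlation of log2(CPM + 1) with the family were Rpl34 (r = 0.991), Chchd2, Rpl37, Psenen, Atraid, Rpl36a, Rpl37a and Rpl38 (r = 0.985). The 12 points share their libraries and differ in depth by class, so the correlations are a description. Rpl34, a ribosomal protein gene of the large subunit, had 19.5 CPM in Normal and 9.07 in SAH, a log2 ratio of -1.10. Chchd2, which encodes a mitochondrial protein, had 25.1 and 11.4 CPM, a log2 ratio of -1.14, and the lowest of the 8 was Rpl37, at -1.41. The CPM of the 8 genes was higher in nuclei under 1000 UMIs than in those of 20000 or more by 5.37 times (Atraid) to 19.1 times (Rpl37) in Normal and by 4.18 times (Atraid) to 15.8 times (Rpl38) in SAH.

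As a group chosen after these values were seen, ribosomal protein genes were also lower in SAH. Of 78 with at least 50 UMIs, 25 were lower by 2 fold or more and 0 were higher, beside 4.12% and 10.0% of all genes, their median log2 ratio was -0.90, and their sum went from 1689 to 932 CPM. The 13 mitochondrially encoded genes had a median of -0.46, with 0 lower by 2 fold and 1 higher. Haemoglobin, at -1.36, was below the median of both groups, and 2 of the 78 ribosomal protein genes were at or below it. There were 260 ribosomal protein UMIs for each haemoglobin UMI in Normal excitatory neurons and 402 in SAH ones, and 200 and 345 in microglia. Whether the 2 have a part in each other's change was not tested.

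No red cell gene with at least 50 UMIs, other than haemoglobin, was lower in SAH by 2 fold. Of the 14 erythroid list genes 13 are in the files (Ahsp is not among them), and 4 had at least 50 UMIs. Of these 4, 0 were lower and 1 was higher by 2 fold, beside 4.12% and 10.0% of all genes. The 1 was Alas2, the erythroid form of the first enzyme of haem synthesis, with 1092 UMIs in Normal and 6396 in SAH, or 9.50 and 37.1 CPM, a log2 ratio of 1.96 (1.87 to 2.06). Its UMIs lay mostly in neurons, and excitatory neurons were also the most numerous class, with 36.5% of Normal and 33.6% of SAH nuclei. In excitatory neurons Alas2 went from 9.19 to 34.6 CPM, in oligodendrocytes from 4.60 to 21.8 and in microglia from 3.57 to 28.6. Ungated nuclei went from 10.7 to 49.6 CPM, the highest SAH level of the 6 classes. The level of Alas2 was higher in SAH in all 6 classes. The list as a whole went from 40.1 to 60.7 CPM, of which Alas2 and Tspan33 (27.9 and 20.5 CPM) made up most. Slc4a1, the anion exchanger of the red cell membrane, had 2 UMIs in Normal and 5 in SAH, and Klf1, the factor that switches on adult beta globin, had 11 and 38.

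In nuclei with a haemoglobin UMI the erythroid list stood at 41.6 CPM in Normal and 64.6 in SAH, beside 40.0 and 60.5 in nuclei without one. Since Alas2 and Tspan33 make up most of this list and the closer red cell genes have few UMIs, these values do not measure red cell markers.

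The haem synthesis genes, from Alas1, which makes the first precursor outside red cells, to Fech, which puts in the iron, were all measured. Of 11 genes, 0 were lower and 0 higher by 2 fold, beside 4.12% and 10.0% of all genes. Their median log2 ratio was -0.41 beside -0.07 over all genes. Of 6 measured erythroid globin regulators (of 9 listed) 0 passed 2 fold in either direction, beside 14.1% of all genes, with a median of -0.26.

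Among genes of haem breakdown and clearance, Hmox1 and Cd163 were higher in SAH. Of 8 measured genes of 10 listed, 2 were higher and 0 were lower, beside 10.0% and 4.12% of all genes, and the median was -0.01. Hmox1, haem oxygenase 1, the inducible enzyme that opens the haem ring, had 34 UMIs in Normal and 136 in SAH, or 0.296 and 0.788 CPM, a log2 ratio of 1.41 (0.86 to 2.00). Of the SAH UMIs 35 were in 18 of the 49 border macrophage-gated nuclei, where the level was 236 CPM (165 to 329), 17 were in microglia and 49 in ungated nuclei. The 5 Normal nuclei of that gate held 0 Hmox1 UMIs, which allows a level of up to 513 CPM, so the 2 levels cannot be ranked. Of the 6 genes of the border macrophage list 5 had at least 50 UMIs and 3 of these were higher by 2 fold in SAH, beside 10.0% of all genes. The part of the border macrophage-gated nuclei in the Hmox1 difference was not tested. In excitatory neurons Hmox1 had 19 UMIs in each library. Cd163, the receptor that takes up haemoglobin and also a marker of that gate, had 0.478 CPM in Normal and 1.70 in SAH, a log2 ratio of 1.83 (1.41 to 2.27). Hmox2, the constitutive haem oxygenase, had 27.8 and 27.6 CPM.

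Of the other globins, 0 of 4 measured (of 6 listed) passed 2 fold in either direction, beside 14.1% of all genes. Ngb, neuroglobin, had 203 UMIs in Normal and 186 in SAH, a log2 ratio of -0.71 (-1.01 to -0.42), and Cygb, cytoglobin, had 574 and 482, a ratio of -0.84 (-1.02 to -0.66). Both had intervals above that of the haemoglobin family. Mb and Adgb, the other measured members, had log2 ratios of 0.91 (0.46 to 1.38) and 0.15 (-0.05 to 0.36). Of 4 measured platelet genes of 6 listed, 2 were lower and 0 higher, beside 4.12% and 10.0% of all genes. Gp9 and Gp1bb, which encode parts of the platelet receptor for von Willebrand factor, had log2 ratios of -2.82 (47 and 10 UMIs) and -1.75 (74 and 33 UMIs), whereas Itga2b had -0.13. The platelet list as a whole went from 2.73 to 1.78 CPM, with Ppbp at 0 in both libraries, and its part in the haemoglobin difference was not tested.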

How the data were processed

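Nuclei of ipsilateral brain tissue were profiled with 10x Genomics droplets. The authors aligned reads to mm10 with Cell Ranger, counting intronic reads (version 6.1.2 in the matrix headers and methods, 5.0.0 in the submitters' processing notes), and deposited raw UMI counts per gene and nucleus, without normalization. The study states more control nuclei and fewer SAH nuclei than these files hold. Its limits on nuclei would leave 12133 and 18180.

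The deposited counts of all nuclei were read with Python 3.11.15, numpy 2.4.6 and scipy 1.17.1. CPM is UMIs over all UMIs of the library or class. A nucleus took the marker list with the most UMIs if it had at least 3 UMIs from at least 2 markers and 2 times the next list; the excitatory and inhibitory lists were first joined and then split at 2 times, and nuclei between were called both. Doublets were not removed, since all nuclei were wanted; removal with Scrublet (scanpy 1.11.5) was an alternative, as were other limits, cuts, gates and scalings. With 1 library per condition, no p-value was computed. Genes with at least 50 UMIs over both libraries were called past 2 fold. The named genes were the 8 haemoglobin genes, list members past 2 fold together with Hmox1, Alas2, Ngb and Cygb, and the 8 genes with the most similar class profile; other list members named were chosen after their values were seen. The intervals were tested on simulated counts drawn independently from a Poisson distribution per gene. These counts had no nuclei, so that test does not cover several UMIs of a gene falling in 1 nucleus. Sequences came from GENCODE vM21 transcripts. The members and lists were chosen with earlier results of these data known. Total UMIs per library set the precision of each level. Values of some list members are not reported here.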

Additional observations from a re-analysis of the deposited data

How the results depend on the processing

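The family log2 ratio of -1.36 lay between -1.42 (nuclei with at least 5000 UMIs) and -1.29 (centred on the median of all genes) under 7 alternatives: limits of the study, at least 500 genes, at least 5000 UMIs, doublets removed, shared barcodes left out, mean UMIs per nucleus and centring. With alpha genes alone it was -0.98 and with beta genes alone -1.76. Since the main cut took 0 nuclei, the values without high nuclei are the same ones and show nothing more. Cuts of 20 UMIs and 3%, of 10 UMIs at any share and of over 3% took 0 nuclei in both libraries, as the cut of 10 UMIs and 1% did. A cut of 5 UMIs and 0.5% took 0 Normal and 2 SAH nuclei (3.53% of the SAH family UMIs) and gave a ratio of -1.41 without them. A cut of 4 UMIs, added after the data were seen, took 4 nuclei (3.04%) in Normal and 3 (4.37%) in SAH. All 42 ratios by class under other gates, doublet removal, the limits of the study, mean UMIs per nucleus and the nuclei of 4 or more UMIs left out were below 0, from -2.20 to -0.98, both in the small class with both neuron marker sets, where the interval of the latter (-2.75 to 0.68, gate of at least 2 UMIs and more than the next list) held 0. For platelet genes a minimum of 200 UMIs left 1 gene and moved the median from -1.21 to -0.13. No paired analysis was possible because each condition has 1 library. With no replicate, the difference between the libraries cannot be told apart from a difference between the 2 pools of mice or between their preparations, and at this depth a class of under 50 nuclei could not be given a level.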
